A study of Mus musculus with 12 samples.

Results

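The 35 genes described here encode ATF4, the transcription factors that act with it, and the proteins that supply a cell with amino acids and load them onto tRNA. They were taken by name from the gene symbols of the 12 deposited tables, which list 24325 genes each. All 35 were found, 34 under their own symbol and the methionyl-tRNA synthetase under the older symbol Mars. By role they fell into 7 transcription factors, 5 feedback and stress effectors, 6 enzymes of amino acid synthesis and one-carbon metabolism, 5 amino acid transporters and 12 cytosolic aminoacyl-tRNA synthetases.

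ATF4 is the main transcription factor of the integrated stress response. Kinases that sense amino acid shortage, unfolded protein in the endoplasmic reticulum, viral RNA or heme shortage phosphorylate the initiation factor eIF2. That slows most translation but lets ribosomes reach the ATF4 reading frame, so the Atf4 transcript level says little about the amount of ATF4 protein. ATF4 pairs with C/EBP proteins on a composite DNA element and raises genes of amino acid uptake, amino acid synthesis and tRNA charging. B cells that become antibody-secreting cells expand the endoplasmic reticulum and their secretory output, which raises their demand for amino acids.

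The libraries held RNA of splenic B cells of C57BL/6 mice carrying a green fluorescent protein reporter in 1 allele of Prdm1 (Prdm1+/gfp), the gene for the plasma cell regulator Blimp1. The mice were either Mzb1+/+ (wt) or Mzb1-/- (ko), and both genotypes carried the reporter. Mzb1 encodes a chaperone cofactor of the endoplasmic reticulum. Cells bound by anti-B220 beads were grown for 4 days with 25 µg/ml lipopolysaccharide (LPS), a bacterial B cell activator, and then sorted. Activated B cells (ActB) lacked CD138 and the reporter, pre-plasmablasts (PrePB) had the reporter without CD138, and plasmablasts (PB) had both. All groups were cultured with LPS, so there is no unstimulated control. Each of the 6 groups held 2 libraries. The labels do not give the age of the mice or say whether the 2 libraries came from separate animals, so the p-values measure only the spread between these libraries, which in ko may be technical and in wt includes the sex difference given below.

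The unit is FPKM, in which fragments are divided by transcript length and library size, which allows levels of different genes to be compared per length. Total FPKM per library ran from 418966 to 462257 in ActB, 472776 to 567737 in PrePB and 527842 to 581262 in PB. Small RNA genes held 0.981% to 14.2% of the total, most in ko PrePB replicate 2. The depth of the libraries is unknown. Mzb1 was at 845 and 1016 FPKM in wt ActB against 273 and 289 in ko, at 10066 and 9926 against 899 and 871 in PrePB, and at 15434 and 17359 against 1008 and 926 in PB, so the ko libraries were lower in each population. Xist, from the inactive X chromosome, was at 33.3 to 81.4 FPKM in wt replicate 1 of each population, whereas the other 9 libraries had the Y-linked Ddx3y at 15.7 to 22.0. The steps between low FPKM values put 4 ko libraries apart from the other 8: replicate 2 of ActB and PrePB and both PB libraries. In PB this split cannot be told apart from genotype. Of markers of other cells, Elane, S100a9, Clec9a and Ncr1 were listed at 0 in all libraries and Cd3e and Csf1r stayed below 0.14 FPKM. Adgre1 reached 7.84 to 28.2 FPKM in ActB and at most 1.58 elsewhere, Flt3 ran from 16.4 to 22.2 in ActB and 6.90 to 13.1 elsewhere, and Cd3g from 0.207 to 0.808 in ActB and 2.60 to 8.17 elsewhere. The summed level of 4 natural killer cell markers ran from 0 to 0.269 FPKM in ActB, 0.648 to 1.34 in PrePB and 4.44 to 6.01 in PB, where nearly all of it was Eomes (4.40 to 6.01). The part of these 4 genes in the results was not tested.

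The composite element read by ATF4 with C/EBP partners was looked for as the letters TGATGNAA, on both strands, in the RefSeq promoter windows of the GRCm38.p6 build, 250 bases before to 50 after each start site. A window was at hand for 29 of the 35 genes, and 11 of the 29 held the letters (37.9%), against 4.51% of the 27025 genes with a window. The genes were gathered in part as known ATF4 targets, so this share is a description of the choice. The 11 were Atf3, Nupr1, Trib3, Chac1, Asns, Slc7a11, Aars, Gars, Iars, Tars and Yars. Of 16 other genes linked to ATF4 6 held them (37.5%), and of 13 genes of the eIF2 list 1, while 0 of 8 other cytosolic synthetase and scaffold genes, 0 of 15 mitochondrial synthetase genes and 0 of 11 genes of the XBP1 and ATF6 branch did. The letters fell 110 bases before the start of Atf3 and of Nupr1, 193 before Chac1, 23 before Asns, 112 before Aars and 15 before Tars. Slc7a11 held them on both strands, 66 and 47 bases before the start. The stretches below show the element in genes whose RNA then went in different directions between the populations. They are written 5′ to 3′ along the gene, and capitals mark the letters, read as TGATGNAA or as its reverse complement TTNCATCA.

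Chac1, chr2:119351019-119351086, plus strand: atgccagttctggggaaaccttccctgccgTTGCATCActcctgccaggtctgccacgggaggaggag
Slc7a11, chr3:50443623-50443709, minus strand: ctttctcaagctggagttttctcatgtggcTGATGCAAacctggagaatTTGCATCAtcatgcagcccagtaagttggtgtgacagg
Asns, chr6:7693210-7693262, minus strand: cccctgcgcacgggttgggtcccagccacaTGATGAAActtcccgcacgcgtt
Aars, chr8:111033700-111033767, plus strand: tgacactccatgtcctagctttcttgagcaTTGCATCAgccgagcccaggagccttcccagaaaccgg
Tars, chr15:11399659-11399703, minus strand: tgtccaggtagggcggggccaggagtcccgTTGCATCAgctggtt
Nupr1, chr7:126625543-126625610, minus strand: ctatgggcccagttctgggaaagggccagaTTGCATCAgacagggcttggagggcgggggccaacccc
Atf3, chr1:191183406-191183473, minus strand: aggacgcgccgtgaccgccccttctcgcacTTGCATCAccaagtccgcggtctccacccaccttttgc

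Among these stretches those of Chac1, Asns and Tars belong to genes that rose from wt ActB to wt PB on the deposited scale, that of Aars to one that was not called, and those of Nupr1 and Atf3 to genes that fell. Of the 11 genes with the letters, 5 were higher in wt PB than in wt ActB, 3 were lower and 3 were not called. Among the 18 with a window but without the letters, 13 were higher, 1 was lower and 4 were not called. Over all genes tested 31% were called higher and 31% lower. The 5 include Slc7a11, whose call follows from the filter (below). With equal totals (below) Asns and Tars of the 5 changed sign, as did Phgdh, Psph and Sars of the 13. No test compared the genes with and without the letters.

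All 35 genes had at least 1 FPKM in at least 2 libraries and were tested. Slc7a11 passed through the PrePB and PB groups alone, so its calls in the counts above and below follow from the filter and are no support for them. A gene was called at an adjusted p below 0.05 in limma over the 11069 genes tested, and changes are given on the log2(FPKM + 1) scale. From wt ActB to wt PB 27 of the 35 were called, 22 higher and 5 lower, where 62% of all genes tested were called (31% higher and 31% lower). From wt ActB to wt PrePB 17 were higher and 5 lower, against 53.4% of all genes called (27.1% higher and 26.3% lower), and with equal totals (below) 14 were higher and 12 lower. Between wt PrePB and wt PB 5 were higher and 1 lower, against 8.73% of all genes called (5.02% higher and 3.7% lower). The median change of the 35 from wt ActB to wt PB was 0.33, and that of all genes tested was -0.01. The libraries were also rescaled so that their totals without the small RNA genes were equal (called equal totals here). The totals were higher in PB than in ActB, so this rescaling lowers PB levels against ActB. The split then moved to 14 higher and 12 lower. On that scale the median of all genes was -0.38 and that of the 35 was -0.08. The share of all genes called on that scale is not given here, so splits with equal totals are not set against the shares above. A small rise below is a rise on the deposited scale only. Without wt replicate 1 in all 3 populations, which differs from the other libraries by the sex of the animal, 16 were higher and 4 lower from wt ActB to wt PB: Cebpg, Nupr1, Sesn2, Asns, Phgdh, Psph and Cars were no longer called.

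**Figure D1:**
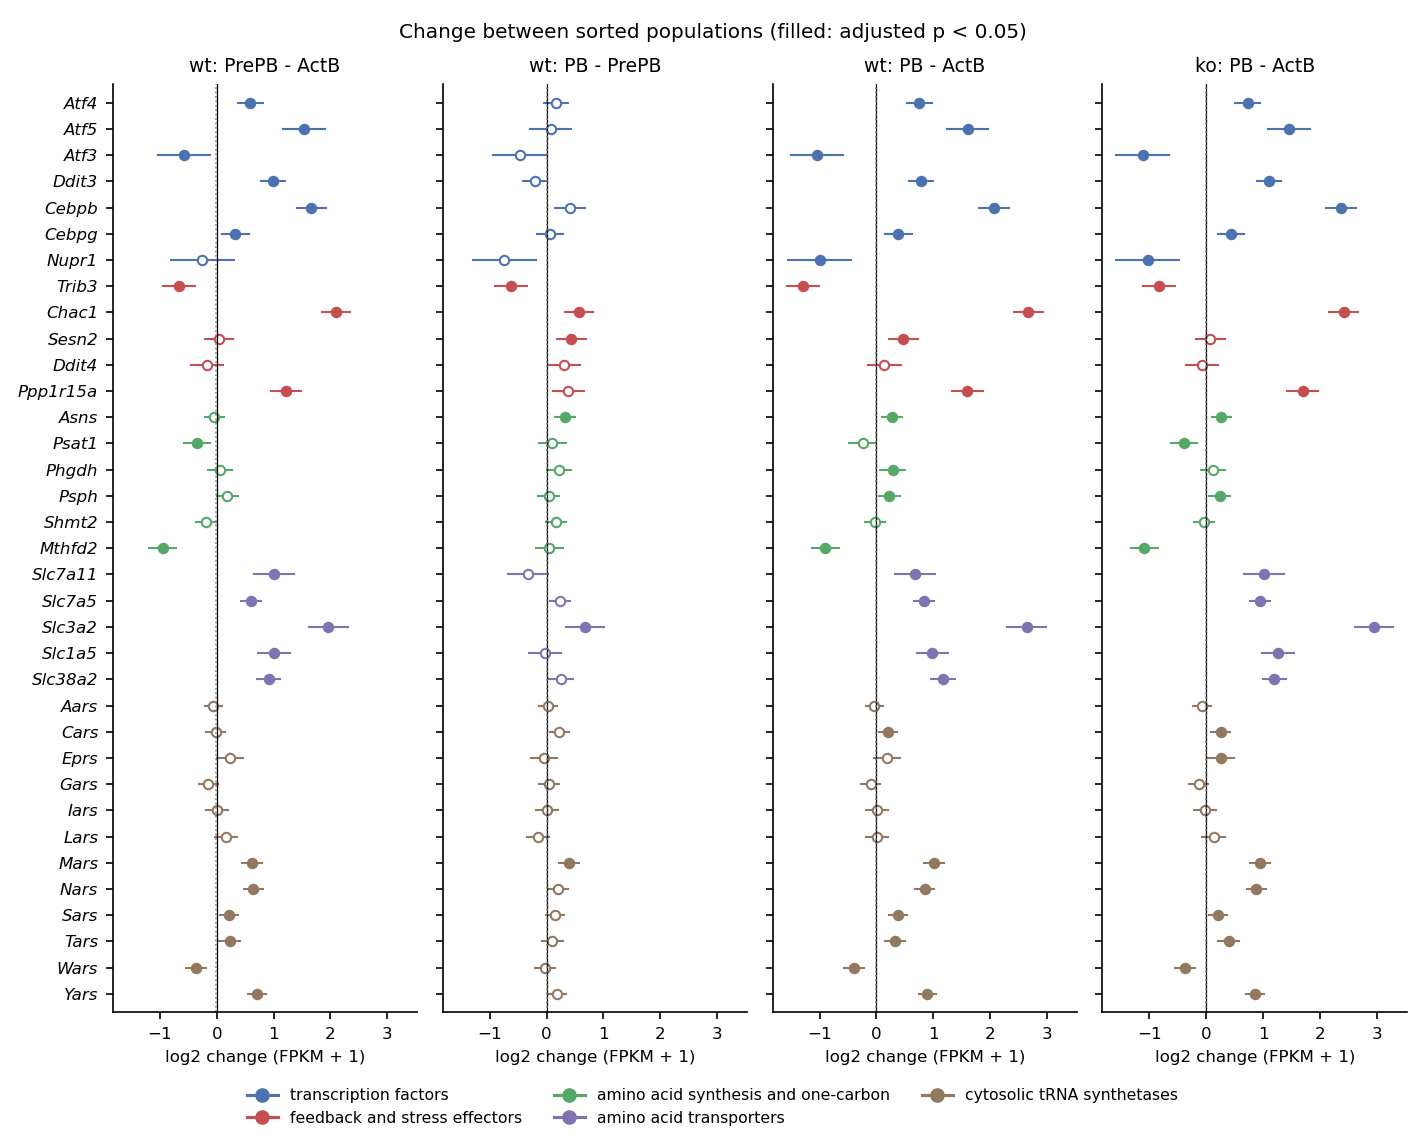
Change of each of the 35 genes on the log2(FPKM + 1) scale (x axis) between sorted populations, one panel per comparison, with 95% intervals from limma and 2 libraries per group. Filled points passed an adjusted p of 0.05, the dotted line is the median of all genes tested and colours mark the roles. Chac1 (2.67) and Slc3a2 (2.64) stand farthest to the right in the wt PB against ActB panel, and Trib3 (-1.29) farthest to the left.

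Of the 7 transcription factors, 5 rose and 2 fell from wt ActB to wt PB, where 31% of all genes tested were called higher and 31% lower. Atf4 had the highest level of the 35 genes in ActB and PrePB. It was at 383 and 377 FPKM in wt ActB and 375 and 336 in ko, at 582 and 567 in wt PrePB and 569 and 495 in ko, and at 630.3 and 655 in wt PB and 605 and 572 in ko. No ActB library overlapped with a PrePB or PB library. The change from wt ActB to wt PB was 0.76 (SE 0.10, adjusted p = 5.34e-05), with 0.59 of it reached in PrePB. With quantile normalization the change was 0.18 and the call was lost (adjusted p = 0.209), and with equal totals it was 0.34 (adjusted p = 0.0155). Under quantile normalization the Atf4 call was also lost in the ko and in PrePB.

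Cebpb, a C/EBP partner of ATF4, rose most among the factors. It was at 7.13 and 8.77 FPKM in wt ActB, 26.5 and 28.1 in wt PrePB and 36.6 and 36.4 in wt PB, and the ko libraries ran from 6.07 to 6.49, 23.5 to 27.4 and 33.5 to 39.7. The 3 populations were separate. From wt ActB to wt PB the change was 2.07 (SE 0.12, 4.21-fold, adjusted p = 9.86e-08). Cebpg, the partner with a more even level, went from 12.04 and 13.5 FPKM to 16.1 and 17.9, a change of 0.39 (adjusted p = 0.00747) that was 0.00 with equal totals. Atf5, a relative of ATF4 that is also controlled at translation, was at 17.1 and 21.4 FPKM in wt ActB, 52.0 and 63.3 in wt PrePB and 55.3 and 65.8 in wt PB. Its rise of 1.60 (SE 0.16, adjusted p = 8.93e-06) lay almost wholly in the first step.

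Ddit3, the gene for CHOP, which is linked to death under unresolved stress, was at 24.5 and 29.5 FPKM in wt ActB, 51.8 and 57.0 in wt PrePB and 45.0 and 48.9 in wt PB. Its ko levels were 26.1 and 26.7, 65.3 and 64.1, and 59.6 and 56.8. Within each genotype the PrePB libraries were thus the highest. Ddit3 rose by 0.99 to wt PrePB (SE 0.10, adjusted p = 8.41e-06), and the difference of -0.21 from wt PrePB to wt PB was not called (adjusted p = 0.204). Atf3, a stress-induced repressor and partner of the same family, fell from 7.99 and 11.97 FPKM in wt ActB to 6.68 and 5.86 in wt PrePB and 5.13 and 3.46 in wt PB. The change to wt PB was -1.05 (SE 0.21, adjusted p = 0.00126). Nupr1, a small stress-induced nuclear protein, fell from 5.98 and 7.06 FPKM to 2.21 and 3.41, a change of -0.996 (adjusted p = 0.00518). Both genes were below 14 FPKM in each library.

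Among the 5 effectors Chac1 rose most. It encodes an enzyme that breaks down glutathione. Its level was 9.49 and 8.27 FPKM in wt ActB and 13.4 and 10.2 in ko, 41.3 and 41.1 in wt PrePB and 41.4 and 38.8 in ko, and 60.9 and 62.4 in wt PB and 68.2 and 65.6 in ko. The populations were separate in both genotypes and stood in the same order. Chac1 rose by 2.10 from wt ActB to wt PrePB (SE 0.11, 4.28-fold, adjusted p = 1.25e-07) and by 0.57 from there to wt PB (adjusted p = 0.0135). Over the whole range the change was 2.67 in wt (6.36-fold, adjusted p = 1.32e-08) and 2.42 in ko (5.35-fold, adjusted p = 2.61e-08).

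Trib3, a pseudokinase that restrains ATF4 and CHOP, went the opposite way. It was at 14.3 and 15.1 FPKM in wt ActB, 8.25 and 9.54 in wt PrePB and 5.07 and 5.78 in wt PB. In ko it was at 15.2 and 11.95, 10.1 and 10.4, and 7.62 and 6.74. No library of 1 population overlapped with another. Trib3 fell by 1.29 from wt ActB to wt PB (SE 0.13, adjusted p = 7.19e-06). Trib3 and Chac1 both hold the composite letters, Trib3 14 bases after its start site.

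Ppp1r15a, the phosphatase subunit that reverses eIF2 phosphorylation, was at 27.8 and 21.8 FPKM in wt ActB, 61.6 and 56.2 in wt PrePB and 80.5 and 73.3 in wt PB. It rose by 1.60 over the whole range (SE 0.12, 3.03-fold, adjusted p = 9.18e-07) and by 1.70 in ko. Sesn2 and Ddit4 restrain the growth kinase complex mTORC1, Sesn2 as a leucine sensor. Sesn2 was at 33.0 and 39.8 FPKM in wt ActB and 48.1 and 53.5 in wt PB, a rise of 0.47 (adjusted p = 0.00408) that fell to 0.07 with equal totals. In ko it was at 51.3 and 46.1 in ActB and 55.6 and 46.8 in PB, and it was not called (0.07). Ddit4 ran from 77.4 to 126 FPKM over all libraries and was called in no comparison of populations on the deposited scale in the main fit. With equal totals it was called lower from wt ActB to wt PrePB and from ko ActB to ko PrePB and to ko PB. The replicate block also called it lower from ko ActB to ko PrePB.

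**Figure D2:**
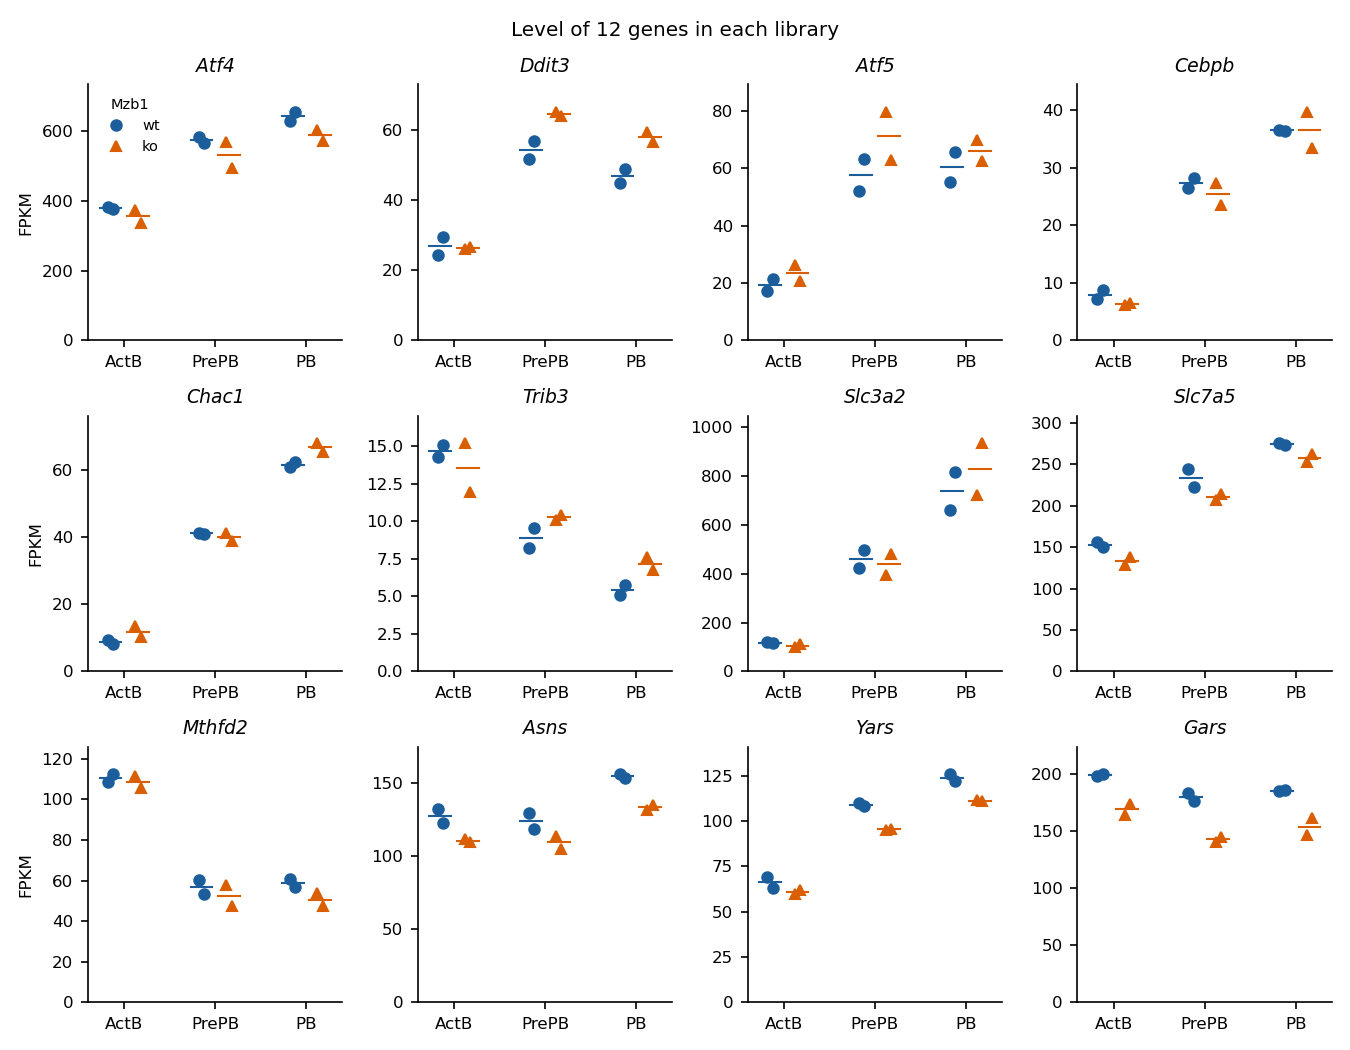
Level in FPKM (y axis, from 0) of 12 of the genes in each of the 12 libraries, by sorted population (x axis), with circles for wt, triangles for ko and a bar at the mean of each pair. Chac1, Cebpb and Slc3a2 climb in each step, Ddit3 is highest in PrePB, Trib3 and Mthfd2 are lowest outside ActB, and Gars lies lower in ko than in wt in each population.

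The 6 enzymes of synthesis and one-carbon metabolism changed less and in both directions: 3 were higher, 1 was lower and 2 were not called from wt ActB to wt PB. The share called was 66.7%, near the 62% of all genes tested (31% higher and 31% lower). Mthfd2, a mitochondrial folate enzyme that is high in dividing cells, was at 109 and 113 FPKM in wt ActB, 60.6 and 53.2 in wt PrePB and 60.9 and 56.9 in wt PB. In ko it was at 111 and 106, 57.6 and 47.3, and 53.9 and 47.3. It was thus high in the 4 ActB libraries and lower in the 8 others, with no overlap. The fall of 0.90 to wt PB (SE 0.11, adjusted p = 3.28e-05) was complete in wt PrePB (-0.95). Shmt2, which makes serine's carbon available in the same organelle, was at 225 and 199 FPKM in wt ActB and 208 and 208 in wt PB and was not called (-0.02).

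Asns, which makes asparagine, was at 132 and 123 FPKM in wt ActB, 129.9 and 119 in wt PrePB and 157 and 154 in wt PB. In ko it was at 112 and 109.8, 114 and 105, and 132 and 135. PB libraries were above the others of their genotype, and Asns rose by 0.28 from wt ActB to wt PB (SE 0.08, adjusted p = 0.00953) and by 0.27 in ko. The 3 enzymes of serine synthesis differed. Phgdh, the first step, rose by 0.28 (adjusted p = 0.024) and Psph, the last, by 0.23 (adjusted p = 0.0363). Psat1, the middle step, was at 186 and 170.4 FPKM in wt ActB and 156 and 144 in wt PB and missed the threshold (-0.24, adjusted p = 0.0645), but was called lower in ko (-0.39, adjusted p = 0.00782). With equal totals and with quantile normalization Psat1 (-0.65 and -0.53) and Shmt2 (-0.44 and -0.38) were called lower in wt too. Rescaled to equal totals, Asns, Phgdh and Psph changed sign in both genotypes (-0.13, -0.12 and -0.18 in wt), so none of these rises holds on that scale.

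Slc3a2, Slc7a5, Slc1a5 and Slc38a2 rose from wt ActB to wt PB and from wt ActB to wt PrePB, and all 4 kept their call from wt ActB to wt PB with equal totals and with quantile normalization. Slc3a2 encodes the heavy chain that carries several amino acid exchangers to the cell surface. It was at 119 and 116 FPKM in wt ActB and 101 and 111 in ko, at 423 and 499.7 in wt PrePB and 396 and 483 in ko, and at 662 and 818 in wt PB and 724 and 937 in ko. The populations were separate, and Slc3a2 lay above Atf4 in each of the 4 PB libraries. It rose by 2.64 (SE 0.15, 6.23-fold, adjusted p = 1.1e-07) in wt and by 2.95 in ko (7.71-fold, adjusted p = 5.13e-08).

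The light chains that pair with Slc3a2 moved less. Slc7a5, the exchanger for large neutral amino acids such as leucine, was at 156 and 149.8 FPKM in wt ActB, 244 and 223 in wt PrePB and 276 and 274 in wt PB, a rise of 0.84 (SE 0.08, 1.79-fold, adjusted p = 4.22e-06). In FPKM, Slc7a5 lay above Slc3a2 in the 4 ActB libraries and below it in the 4 PB libraries. Slc7a11, which imports cystine for glutathione, was at 0.740 and 0.483 FPKM in wt ActB, 2.16 and 2.31 in wt PrePB and 1.62 and 1.53 in wt PB. It was below 1 FPKM in the 4 ActB libraries and below 3 FPKM in each library. It passed the filter through the groups where it is high, so its difference of 0.68 is given without a test, and the added 1 FPKM shrinks its fold.

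Slc1a5, a carrier of glutamine and other neutral amino acids, was at 149 and 118 FPKM in wt ActB, 268 and 269 in wt PrePB and 249.9 and 277 in wt PB. It rose by 0.98 (SE 0.13, 1.98-fold, adjusted p = 5.16e-05), all of it in the first step. Slc38a2, a sodium-coupled carrier of small neutral amino acids, was at 29.0 and 25.7 FPKM in wt ActB, 48.4 and 56.5 in wt PrePB and 60.2 and 65.1 in wt PB, a rise of 1.17 (SE 0.09, 2.25-fold, adjusted p = 1.3e-06). The summed level of the 5 transporters ran from 369 to 454 FPKM in ActB, 978 to 1075 in PrePB and 1250 to 1571 in PB, without overlap. In these bulk values, fewer cells of a type and less RNA per cell cannot be told apart.

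The 12 cytosolic synthetases did not move as a block: from wt ActB to wt PB 6 rose, 1 fell and 5 were not called. The share called was 58.3%, near the 62% of all genes tested (31% higher and 31% lower). Mars (methionine), Yars (tyrosine) and Nars (asparagine) rose most. Mars was at 69.6 and 64.4 FPKM in wt ActB, 103 and 103 in wt PrePB and 129 and 143 in wt PB, a change of 1.01 (SE 0.08, 2.01-fold, adjusted p = 1.39e-06). Yars was at 69.1 and 63.3, 109.9 and 108, and 126 and 122, a change of 0.90 (1.86-fold, adjusted p = 1.12e-06). Nars was at 172 and 163, 267 and 258, and 297 and 309, a change of 0.85 (1.80-fold, adjusted p = 3.08e-06). These 3 were above ActB in each PrePB and PB library of both genotypes, and their calls held with equal totals and with quantile normalization.

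Sars (serine), Tars (threonine) and Cars (cysteine) were called at smaller changes of 0.37, 0.33 and 0.20, which turned to -0.03, -0.08 and -0.20 with equal totals. Wars (tryptophan) fell, from 69.0 and 64.2 FPKM in wt ActB to 51.8 and 51.1 in wt PrePB and 52.9 and 48.0 in wt PB (-0.39, SE 0.08, adjusted p = 0.00137). Aars (alanine), Eprs (glutamate and proline), Gars (glycine), Iars (isoleucine) and Lars (leucine) were not called, with changes from -0.10 for Gars to 0.18 for Eprs, though Aars and Gars were called lower with equal totals (-0.44 and -0.51) and with quantile normalization (-0.22 and -0.43). Aars was among the most even, at 129 and 127 FPKM in wt ActB, 122 and 124 in wt PrePB and 127 and 123 in wt PB. Aars, Gars and Iars hold the composite letters, as Yars and Tars do, so the letters were present in synthetases that rose and in others that were not called. Under equal totals 3 of the 12 were higher and 6 lower, where the median of all genes was -0.38 and that of the 12 was -0.21.

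**Figure D3:**
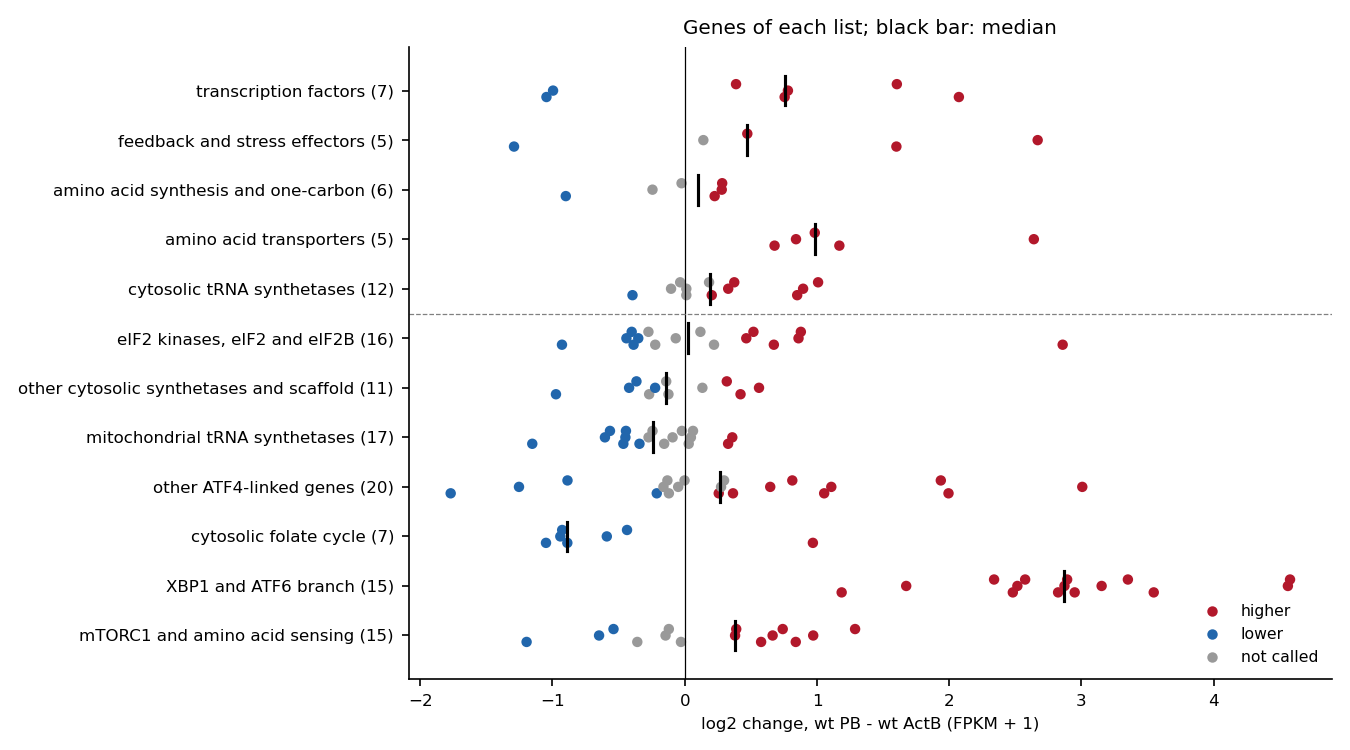
Change from wt ActB to wt PB on the log2(FPKM + 1) scale (x axis) of each tested gene, 1 row per gene list with the number tested, red for called higher, blue for called lower, grey for not called and a black bar at the median. The 5 transporters lie to the right of 0, the 15 genes of the XBP1 and ATF6 branch lie farther right, and 6 of 7 cytosolic folate genes lie to the left.

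The genes around these 35 were read from 7 further lists, from wt ActB to wt PB, where 62% of all genes tested were called (31% higher and 31% lower). The share called was 68.8% in the eIF2 list and 65% among the other genes linked to ATF4, both near that of all genes. Of 16 genes of the eIF2 kinases, eIF2, its exchange factor and its regulators, 6 were higher and 5 lower. Among them Dnajc3, an inhibitor of eIF2 kinases induced by endoplasmic reticulum stress, rose by 2.86 (SE 0.11, adjusted p = 7.72e-09), Impact by 0.88, the kinase gene Eif2ak3 (PERK) by 0.86 and the phosphatase subunit gene Ppp1r15b by 0.67. Of 20 tested genes in a list of 22 others linked to ATF4, 9 were higher and 4 lower. Pycr1, the last enzyme of proline synthesis, was at 6.34 and 4.36 FPKM in wt ActB, 27.5 and 24.6 in wt PrePB and 48.3 and 50.5 in wt PB, a rise of 3.01 (SE 0.13, 8.03-fold, adjusted p = 1.47e-08). Slc7a3, a carrier of cationic amino acids, rose by 1.99 and Herpud1, a protein of endoplasmic reticulum degradation, by 1.94. Cth, which makes cysteine from cystathionine, fell from 63.8 and 67.0 FPKM to 17.5 and 19.5 (-1.77, SE 0.13, adjusted p = 6.61e-07). Of 15 genes of mTORC1 and amino acid sensing, some of which restrain mTORC1, 8 were higher and 3 lower. Rraga was at 0.97, Wdr24 at 0.66 and Sesn3 at -1.20. Rragd, in the same list, was at 0.399 to 0.594 FPKM in the ActB libraries and passed the filter through PrePB and PB alone. Its difference of 1.29 is given without a test, and its call is no support for the counts of the list. Rragd aside, the genes named here were called in the same direction with equal totals. The balance of the lists turned there, where the median of all genes was -0.38. It was 4 higher and 8 lower in the eIF2 list and 6 and 8 among the other genes linked to ATF4. In the list of 15 it was 5 and 7.

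Over all genes tested 31% were called higher and 31% lower in the same comparison. Of 11 other cytosolic synthetase and scaffold genes 3 were higher and 4 lower, with Qars at 0.56, Hars at 0.32, Farsb at -0.42 and Eef1e1 at -0.97. With equal totals none of the 11 was called higher and Hars changed sign (-0.09, not called). Of 17 mitochondrial synthetase genes 2 were higher and 7 lower, with Wars2 at -1.15, Hars2 at -0.57 and Iars2 at -0.44. With equal totals 0 were higher and 15 lower, where the median of all genes was -0.38. The 7 genes of the cytosolic folate cycle, which supplies thymidylate and purines to dividing cells, had 6 lower, among them Mthfd1 at -1.05, Tyms at -0.94 and Shmt1 at -0.93, beside the fall of Mthfd2. All 15 genes of the XBP1 and ATF6 branch, the other arms of the unfolded protein response, were higher, with a median of 2.87, where that of the 35 genes was 0.33. Xbp1 changed by 4.56, Derl3 by 4.58, Dnajb9 by 2.95 and Manf by 2.82.

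Of the 27 genes called between wt ActB and wt PB, 22 changed more from ActB to PrePB than from PrePB to PB (81.5%), against 86.6% of all genes called in that comparison. In ko it was also 22 of 27, against 84.9%. The shares of the 35 genes were thus near those of all genes. The exceptions in wt were Nupr1, Sesn2, Asns, Phgdh and Cars. In the second step of wt the called genes were Chac1, Slc3a2 (0.68), Sesn2 (0.43), Mars (0.39), Asns (0.32) and Trib3 (-0.62). This count of 6 rested on each library: leaving out 1 of the 4 libraries gave 0 to 2, and leaving out wt replicate 1 in all 3 populations gave 0. The fit on the compared groups alone gave 1 and the replicate block gave 10, so the second step is given as values more than as a list.

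In ko the populations differed much as in wt. From ko ActB to ko PB 21 genes were higher and 6 lower, against 62.2% of all genes called (31.2% higher and 30.9% lower). From ko ActB to ko PrePB 16 were higher and 8 lower, against 54.2% (27.1% and 27%). From ko PrePB to ko PB 6 were higher and 1 lower, against 10.8% (6.57% and 4.24%). From ActB to PB 25 genes were called in both genotypes, 92.6% of the 27 in wt and 92.6% of the 27 in ko, and all 25 had the same sign. Over all genes tested 6114 were called in both, 89.1% of those in wt and 88.9% of those in ko, which is close to the shares among the 35. Sesn2 and Phgdh were called in wt alone and Psat1 and Eprs in ko alone, but the difference of the steps between genotypes was called for none of the 35 genes. In limma the number of these differences at an unadjusted p below 0.05 was 1 for PrePB against ActB, 0 for PB against PrePB and 3 for PB against ActB. The share of all genes at that unadjusted threshold is not given here. Over all genes tested 0.0361%, 0% and 0.0452% passed the adjusted threshold.

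Between ko and wt, 0 of the 35 genes were called in ActB, 0 in PrePB and 0 in PB, where 0.0542%, 0.117% and 0.407% of all genes tested were called. In limma the number of the 35 at an unadjusted p below 0.05 was 11, 13 and 11. The share of all genes at that threshold is not given here, so these counts are not read as a difference of the 35 genes. The smallest adjusted p were 0.433, 0.137 and 0.139. The 35 changes ran from -0.29 to 0.41 in ActB, -0.33 to 0.30 in PrePB and -0.31 to 0.35 in PB. These differences are described by role, with no test of the lists. The synthetic enzymes lay lower in ko with no overlap of libraries for 4 of 6 genes in ActB, 5 of 6 in PrePB and 6 of 6 in PB, and the synthetases for 9, 10 and 9 of 12, where 17.7%, 21.4% and 21.2% of all genes tested were lower without overlap. With equal totals these counts were 4, 4 and 3 of 6 and 6, 8 and 6 of 12, beside 16%, 12% and 11.4% of all genes. On the deposited scale some further lists leaned the same way. Lower without overlap in ActB, PrePB and PB were 8, 5 and 6 of 11 other cytosolic synthetase and scaffold genes. The same held for 5, 4 and 4 of 7 cytosolic folate genes and 6, 11 and 9 of 20 other genes linked to ATF4. The eIF2 list had 7, 6 and 7 of 16, the mitochondrial synthetase genes 9, 2 and 3 of 17 and the XBP1 and ATF6 branch 7, 1 and 1 of 15. The 7 transcription factors had 2, 1 and 1, the 5 transporters 2, 1 and 1 and the 15 mTORC1 genes 1, 3 and 1. With equal totals the other cytosolic synthetase and scaffold genes had 5, 4 and 5 and the folate genes 4, 4 and 2. The other genes linked to ATF4 had 4, 6 and 5 there and the eIF2 list 7, 3 and 5.

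Gars had the lowest p in PrePB and PB. It was at 198 and 200.2 FPKM in wt ActB against 164 and 174 in ko, at 183 and 177 against 141 and 145 in PrePB, and at 185 and 186 against 146 and 162 in PB. The ko libraries were below the wt libraries in each population, by 0.23, 0.33 and 0.27 on the log2 scale (95% intervals -0.40 to -0.07, -0.50 to -0.16 and -0.44 to -0.10, adjusted p = 0.495, 0.137 and 0.139). Psat1 was at 186 and 170.4 FPKM in wt ActB against 160.4 and 156 in ko, at 156 and 125 against 110.2 and 114 in PrePB, and at 156 and 144 against 117 and 124 in PB (-0.31, adjusted p = 0.191 in PB). Phgdh in PB was at 84.1 and 89.4 in wt against 65.2 and 75.0 in ko (-0.31, adjusted p = 0.167).

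The effectors were mixed. In ActB, Chac1, Sesn2 and Ddit4 were higher in both ko libraries than in both wt libraries, by 0.37, 0.41 and 0.35, without passing the threshold (adjusted p = 0.464, 0.433 and 0.541), while Trib3 and Ppp1r15a had differences of -0.11 and -0.20. Higher without overlap were 3 of the 5 effectors in ActB, 2 in PrePB and 2 in PB, where 18.3%, 25.7% and 28% of all genes were. With equal totals they were 3, 4 and 2 of 5, beside 18.8%, 38.6% and 44.2%. Ddit3 was higher in both ko libraries of PrePB and of PB (0.25 and 0.31, adjusted p = 0.263 and 0.167), and Atf4 differed by -0.10, -0.11 and -0.13 with intervals that include 0. In ActB and PrePB ko replicate 1 had the low-value pattern of the wt libraries and ko replicate 2 did not. With a term for this pattern in the fit, still none of the 35 genes was called between ko and wt in any population. The share of each difference that goes with the pattern is not given here. In PB the pattern and genotype cannot be told apart. Of all genes of the 7 further lists, only Eif2s2, the beta subunit of eIF2, was called between ko and wt in PB (23.6 and 25.9 FPKM in wt, 13.6 and 16.5 in ko, -0.69, adjusted p = 0.0419), and this call was lost with equal totals (-0.58, adjusted p = 0.0596) and with quantile normalization (-0.69, adjusted p = 0.0571).

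**Figure D4:**
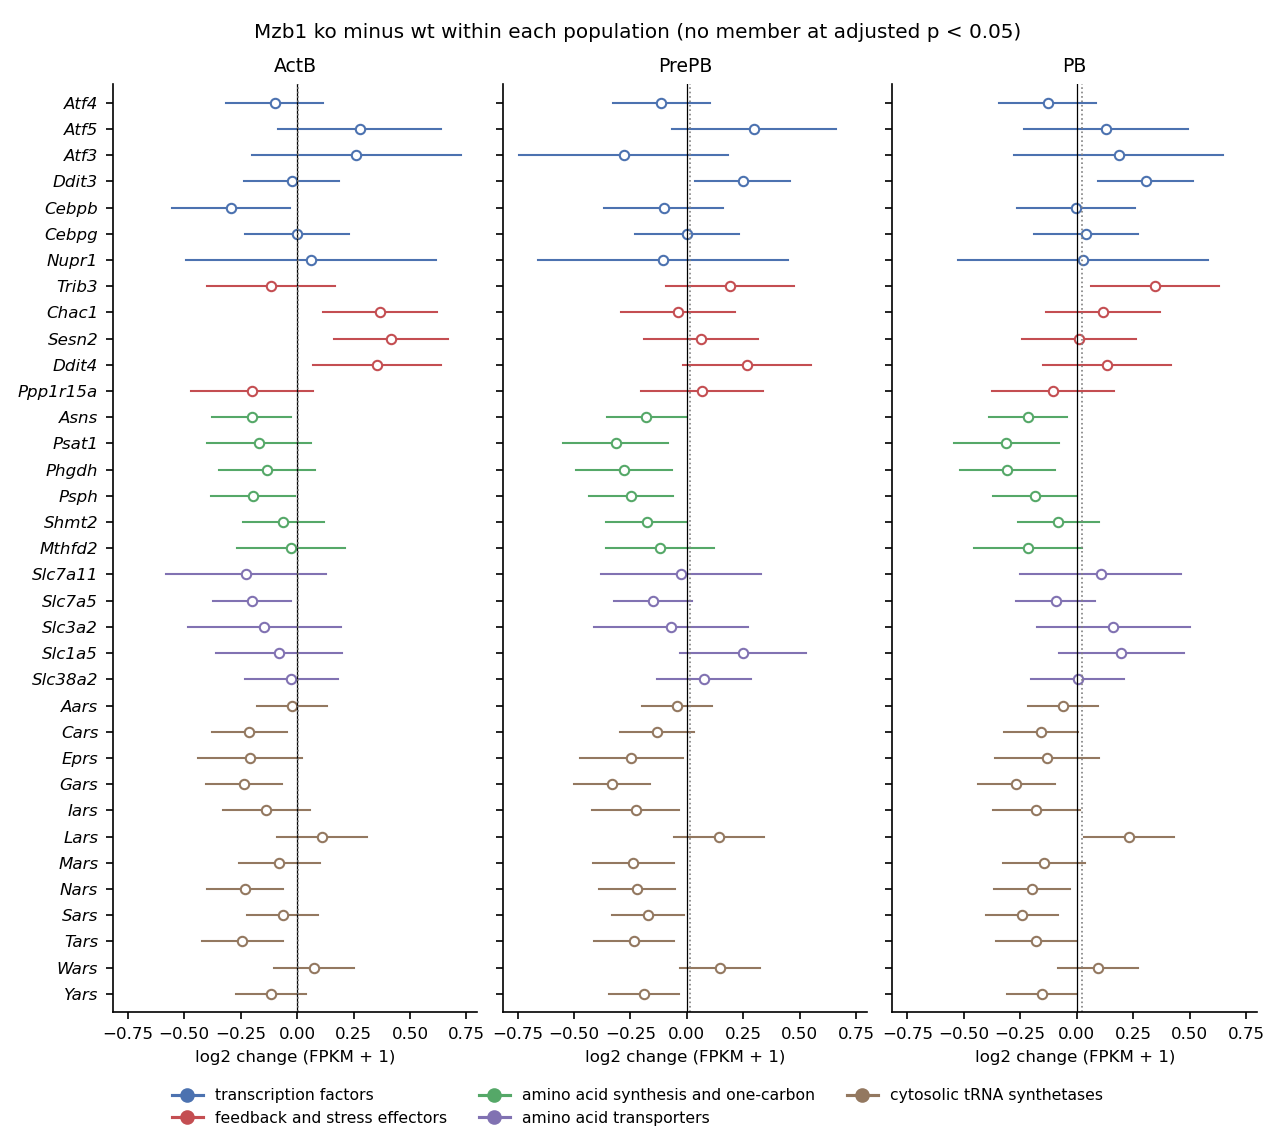
Difference between ko and wt of each of the 35 genes on the log2(FPKM + 1) scale (x axis) in ActB, PrePB and PB, with 95% intervals from limma and 2 libraries per group. Open points mark that no gene passed an adjusted p of 0.05, the dotted line is the median of all genes tested and colours mark the roles. On the deposited scale the 6 synthetic enzymes lie left of 0 in all 3 panels, and of the 12 synthetases Lars and Wars lie right of 0.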

How the data were processed

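RNA from 12 sorted B cell samples (2 libraries in each of 6 groups) was purified on RNeasy columns, selected with oligo-dT and made into stranded TruSeq libraries, per the labels' protocols. The authors deposited FPKM values, 1 file per library. Per the submitters' processing notes the tools were TopHat2 2.0.14, Cuffnorm 2.2.1, Cuffdiff (no version), Cufflinks 2.2.1 and bcl2fastq (2.17.1.14 and 0.3.1), on the mm9 build. The annotation, library scaling, filters and treatment of fragments that match several genes are not given in the sources used here. Without counts the depth is unknown and no counting interval was computed.

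FPKM were analysed as log2(FPKM + 1) for the 11069 genes that reached 1 FPKM in 2 or more libraries. limma 3.58.1 (limma-trend, R 4.3.3) was fitted with 6 group means over all 12 libraries (6 residual degrees of freedom), two-sided, with Benjamini-Hochberg adjustment over all genes tested and a threshold of 0.05. Folds are on the FPKM + 1 scale, and the fit was tested on simulated data. The 35 genes, the further lists and the alternatives were chosen with earlier results of these data known. All 35 may be named. Of each further list the 4 genes with the lowest p from wt ActB to wt PB were named, and up to 2 called elsewhere. Some genes that this rule names are not reported here. The low-value pattern was read from genes below 0.5 FPKM: the most frequent ratio of values (log2 tolerance 0.002) was shared by 9.60% to 21.7% of genes between libraries of the larger group, 8.14% to 17.5% within the smaller and 2.25% to 5.16% across. Promoter windows came from RefSeq, GRCm38.p6, a later build than the files' mm9, and were matched by symbol. Python 3.11.15 and matplotlib 3.10.9 were used for figures. Ly6g was not analysed here.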

Additional observations from a re-analysis of the deposited data

How the results depend on the processing

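Leaving out 1 library at a time gave 17 to 21 called genes from wt ActB to PrePB, 23 to 24 from wt ActB to PB, 19 to 21 and 22 to 26 in ko, and 0 between ko and wt and for the differences of steps. Counts between PrePB and PB moved by over 1.5 times. In wt (6) they were 3 with equal totals, 1 with the compared groups alone, 10 with the replicate block, 0 without wt replicate 1 in all 3 populations and 0 to 2 without 1 library. In ko (7) they were 4 with equal totals, 2 with the compared groups alone, 3 without wt replicate 1 in all 3 populations and 2 to 4 without 1 library. A term for the low-value pattern removed the ko calls of Trib3 and Slc7a5 from PrePB to PB and of Eprs from ActB to PB. Calls held under every alternative for 17 of 27 genes from wt ActB to PB, 15 of 22 to PrePB, 18 of 27 and 16 of 24 in ko, and for 0 of 6 and 1 of 7 from PrePB to PB. Slc7a11 is counted as kept in each comparison with ActB. The alternative filter of 5 FPKM left it out, and its calls follow from the main filter. Changes of sign were counted only for genes called in the main fit or in the alternative. All of these came with equal totals: from wt ActB to PrePB Phgdh (-0.19), Sars (-0.0240) and Tars (-0.0213), from wt ActB to PB Asns (-0.13), Phgdh (-0.12), Psph (-0.18), Cars (-0.20), Iars (-0.39), Lars (-0.40), Sars (-0.0343) and Tars (-0.0806), and in ko Asns (-0.0312), Phgdh (-0.19), Psph (-0.0566), Cars (-0.0368), Eprs (-0.0357) and Sars (-0.10). The cause was not tested. The split from ActB to PB was 14 higher and 12 lower there in both genotypes, and from ActB to PrePB 14 and 12 in wt and 14 and 11 in ko. With quantile normalization the split was 16 and 9 to PB. The shares of all genes called on these 2 scales are not given here. Replicate differences correlated at 0.046 to 0.316 across populations of a genotype and -0.11 to -0.047 between genotypes. Not every pair was above 0.1, and the main fit took the number as no pairing. In wt the number does follow the sex of the animal, with Xist in replicate 1 of each population. The main p-values between wt populations do not use this link. The replicate block, a term for the number, moved 1 of the 12 counts by over 1.5 times, from 6 to 10 between wt PrePB and wt PB. The longer motif TGATGCAAT was in 10.3% of the genes with a window and 0.222% of all. Depth is unknown, so a small difference at low FPKM cannot be separated from counting error.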
